A study of Homo sapiens with 6 samples.

Results

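TBC1D and DENND genes encode regulators of Rab proteins, the small GTPases that mark the membranes of the cell and direct vesicle traffic. They were taken as the protein-coding genes of the count table whose names begin with TBC1D or DENND followed by a digit. This gave 58 genes of 58735 in the table, 44 of them TBC1D and 14 DENND. The rule uses names alone and no measured value. In this annotation 3 further genes of the DENND family carry other names (ST5, FAM45A and KIAA1147) and are described with the remaining exchange factors.

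A Rab protein is active on a membrane while it holds GTP. Exchange factors load it with GTP, and the DENN domain is the largest family of such factors. GTPase-activating proteins speed the hydrolysis of GTP and so switch the Rab off, and most of those for Rabs share the TBC (Tre2, Bub2 and Cdc16) domain. In epithelial cells these opposing families set traffic between endoplasmic reticulum, Golgi, endosomes, plasma membrane and the primary cilium, an organelle that grows from the centriole.

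The cells were RPE-1, an immortalized line of human retinal pigment epithelium that carries GFP-tagged Cetn2, which marks centrioles, and PLK4, the kinase that starts centriole duplication, under an rtTA promoter that doxycycline turns on. All 6 libraries came from this line with PLK4 induced by 1 µg/mL doxycycline, so that no group shows the uninduced state. In 3 libraries (siSON) the cells had received an siRNA against SON, a splicing factor of nuclear speckles, and in the other 3 (siControl) a scramble siRNA. The comparison asks which mRNAs change in abundance when SON is depleted. The labels do not say whether replicates were separate cultures, so p-values measure the spread between these libraries, which may be technical.

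Library totals ran from 54572365 to 69764836 counts. SON itself averaged 297 ± 14.5 CPM (counts scaled to library depth with TMM factors) in siControl and 67.6 ± 2.49 CPM in siSON (SD over the 3 libraries of a group, as after every ± below), and the groups did not overlap, so that the labels and the target went together. Of 6 markers of retinal pigment epithelium, TYR had 0 counts in every library, RPE65 and RLBP1 lay at 0 to 0.144 CPM on average in either group, and MITF was the highest at 21.7 ± 0.517 CPM in siControl. The summed level of the 6 was 31.4 to 32.5 CPM in siControl and 40.2 to 46.3 CPM in siSON. MITF and BEST1 rose, to 31.1 and 12.5 CPM, and PMEL fell from 2.06 to 0.2 CPM (adjusted p 3.72e-07). PTPRC, PECAM1, EPCAM and SOX10, markers of other cell types, summed to 2.36 to 3.31 CPM in siControl and 0.551 to 1.19 CPM in siSON, with SOX10 at 0 throughout. The keratins KRT8 and KRT18 summed to 764 to 863 CPM in siControl and 1330.8 to 1392.4 CPM in siSON. The genes altered in the line also differed between the groups. PLK4 fell from 177 ± 12.4 to 138 ± 23.3 CPM (log2 change -0.36, adjusted p 0.0143). CETN2 rose from 624 ± 25.1 to 814 ± 42.4 CPM (log2 change 0.38, adjusted p 5.89e-05). The part of these shifts in the results was not tested. Each library pools many cells, so fewer transcripts per cell and fewer cells with the transcript cannot be told apart. Values are relative to each library's total, so a change in total RNA per cell would not show.

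After SON knockdown these families split. Of the 58 genes, 42 passed the filter on low counts (29 TBC1D and 13 DENND), and 34 of those passed edgeR's test at an adjusted p threshold of 0.05. Of these 34, 20 were higher in siSON and 14 lower. That share, 81.0%, stood beside 71.7% of all genes tested and 77.4% of the protein-coding genes tested, so the count is near what the rest of the transcriptome shows. Higher calls made up 35.2% and lower calls 36.5% of all genes tested, or 40.3% and 37.1% of the protein-coding genes. A change of at least 2-fold was called for 10 members, 5 in each direction, beside 29.3% of all genes (8.72% higher and 20.5% lower) and 27.3% of the protein-coding genes (8.62% higher and 18.7% lower). The libraries of the groups did not overlap in CPM for 37 of the 42 genes, beside 75.1% of all genes and 79.9% of the protein-coding genes. TBC1D genes had 14 higher and 8 lower with a median log2 fold change of 0.25, and DENND genes had 6 higher and 6 lower with a median of -0.03. The shares called were 75.9% for TBC1D and 92.3% for DENND, the latter 76.9% under cyclic loess normalization. The median over all genes was -0.03, and over protein-coding genes 0.03. With library size alone, which shifts genes by a median of -0.20 and puts the median of all genes at -0.22, TBC1D had 12 higher and 12 lower with a median of 0.05, both families together 17 higher and 19 lower, and DENND a median of -0.22. The counts by direction thus moved with the scaling. The TBC1D median stayed above that of all genes and that of protein-coding genes, which was -0.17 with library size alone. All genes then split into 4441 higher and 7351 lower, against 5834 and 6054 with TMM. The plot of log2 fold changes shows the order of the 42 genes.

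**Figure D1:**
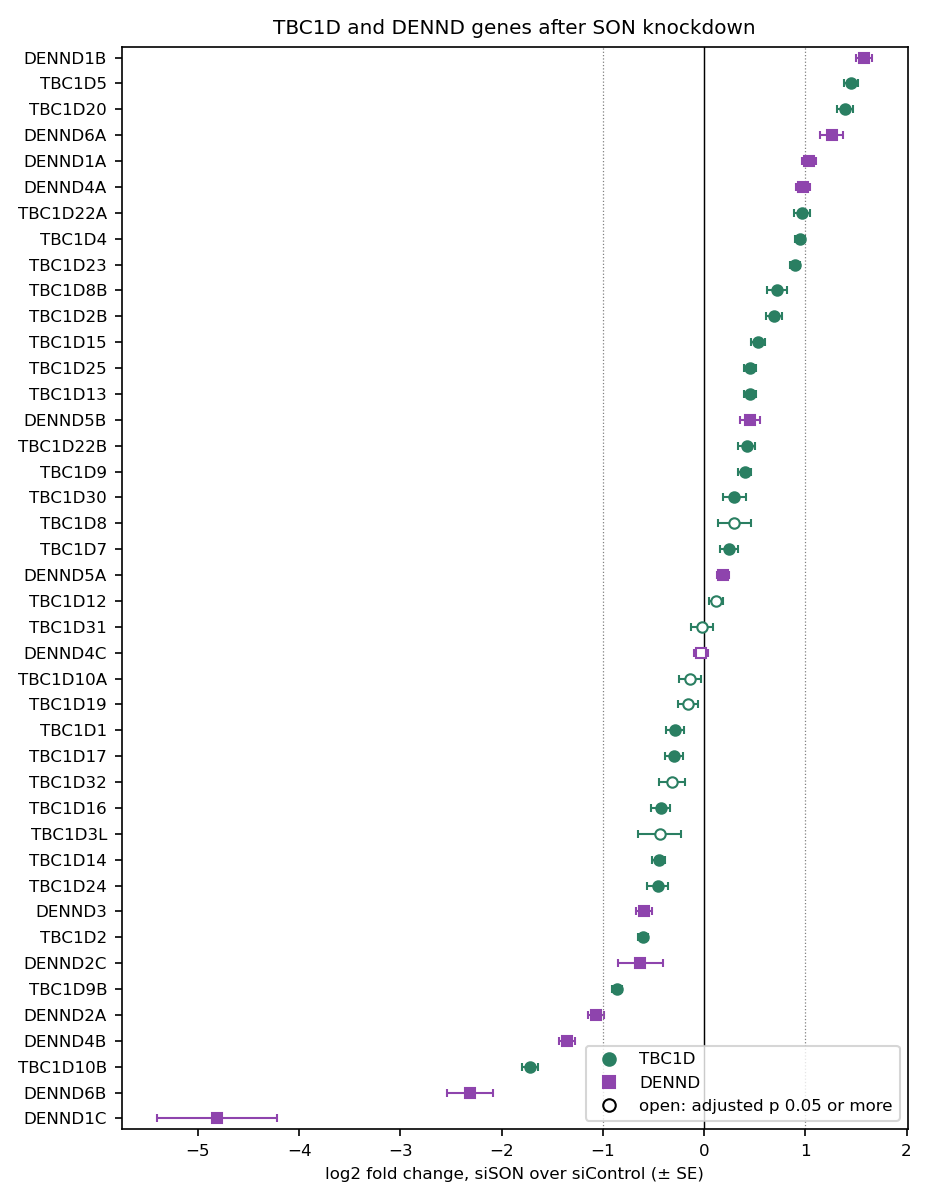
Log2 fold change (siSON over siControl, horizontal axis) of the 42 tested TBC1D (circles) and DENND (squares) genes, with bars of 1 SE; open symbols missed the threshold of 0.05 on the adjusted p, and dotted lines mark a 2-fold change. The order runs from DENND1C at -4.81 to DENND1B at 1.58, with genes of both families at either end.

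The DENND1 genes encode the connecdenns, exchange factors for RAB35, which acts in endosomal recycling. They held both the largest rise and the largest fall among the members. DENND1B (ENSG00000213047; GRCh38 chromosome 1, 197504748 to 197775696, minus strand, 23 exons) had 8.13, 9.09 and 8.07 CPM in siControl and 25.1, 26.4 and 24.3 CPM in siSON. Every siSON library lay above every siControl library, with a log2 change of 1.58 (with an SE of 0.08 and an adjusted p of 3.08e-08). DENND1A (chromosome 9, 123379654 to 123930152, minus strand, 22 exons) had 19.8, 19.9 and 21.4 CPM in siControl and 42.4, 41.0 and 41.9 CPM in siSON. It rose 2.05-fold, a log2 change of 1.04 (with an SE of 0.07 and an adjusted p of 1.16e-07). DENND1C (ENSG00000205744; chromosome 19, 6467207 to 6482557, minus strand, 23 exons) went the other way, from 56, 53 and 48 counts in the siControl libraries to 0, 3 and 1 counts in the siSON libraries. It fell by 4.81 on the log2 scale (SE 0.59, adjusted p 1.98e-05), and by 3.18 under cyclic loess normalization. Leaving out siSON replicate 2, which holds 3 of the 4 counts, gave DENND1C -6.09. From summed counts 3.30% of the control level remained (95% exact interval 0.889% to 8.63%, counting error only). DENND1C passed the filter through the siControl libraries alone, so it could only be tested because it was high there. It shares its span with CRB3 on the other strand, and DENND1A with CRB2.

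DENND6A is an exchange factor for RAB14, a Rab of endosome-to-surface traffic, and DENND6B is its paralog. DENND6A (chromosome 3, 57625457 to 57693089, minus strand, 20 exons) had 10.4, 13.3 and 13.9 CPM in siControl and 27.1, 31.7 and 31.4 CPM in siSON. DENND6B (chromosome 22, 50309030 to 50327060, minus strand, 20 exons) had 2.59, 2.97 and 2.32 CPM in siControl and 0.672, 0.388 and 0.511 CPM in siSON. The groups did not overlap for either gene, and the paralogs moved apart: DENND6A rose 2.40-fold (log2 fold change 1.26, SE 0.11, adjusted p 1.52e-06), and DENND6B fell by 2.31 on the log2 scale (SE 0.23, adjusted p 4.23e-06). RAB14 itself, named after its values were seen, had a log2 fold change of 0.31 (adjusted p 6.79e-04), a call lost with library size alone (0.11, adjusted p 0.122) and under cyclic loess normalization (0.03, adjusted p 0.604).

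Because the DENND1 and DENND6 genes include paralogs that moved in opposite directions, their promoters are shown, 250 bases before to 50 after the RefSeq start on GRCh38.p14. Capitals mark GC boxes (GGGCGG on either strand, the core of Sp1-type sites), and adjoining or overlapping boxes run together.
DENND1A (chr9:123930077-123930376, minus strand): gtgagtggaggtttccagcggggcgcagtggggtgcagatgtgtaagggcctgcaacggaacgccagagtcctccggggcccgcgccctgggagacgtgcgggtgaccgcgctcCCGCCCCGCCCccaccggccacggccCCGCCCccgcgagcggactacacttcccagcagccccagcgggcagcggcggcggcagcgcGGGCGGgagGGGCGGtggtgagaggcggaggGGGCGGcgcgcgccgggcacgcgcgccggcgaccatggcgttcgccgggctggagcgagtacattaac
DENND1B (chr1:197775431-197775730, minus strand): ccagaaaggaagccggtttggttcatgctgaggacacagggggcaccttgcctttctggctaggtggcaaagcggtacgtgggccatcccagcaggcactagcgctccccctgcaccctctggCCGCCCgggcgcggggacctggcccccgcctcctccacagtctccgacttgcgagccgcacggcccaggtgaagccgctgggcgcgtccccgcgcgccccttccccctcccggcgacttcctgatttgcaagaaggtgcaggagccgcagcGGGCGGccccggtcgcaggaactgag
DENND1C (chr19:6481738-6482037, minus strand): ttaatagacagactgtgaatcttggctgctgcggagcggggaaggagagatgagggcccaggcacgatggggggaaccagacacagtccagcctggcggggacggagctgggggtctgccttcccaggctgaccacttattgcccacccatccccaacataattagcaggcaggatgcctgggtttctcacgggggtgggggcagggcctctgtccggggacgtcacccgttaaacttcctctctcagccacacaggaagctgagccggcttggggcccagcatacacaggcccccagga
DENND6A (chr3:57693028-57693327, minus strand): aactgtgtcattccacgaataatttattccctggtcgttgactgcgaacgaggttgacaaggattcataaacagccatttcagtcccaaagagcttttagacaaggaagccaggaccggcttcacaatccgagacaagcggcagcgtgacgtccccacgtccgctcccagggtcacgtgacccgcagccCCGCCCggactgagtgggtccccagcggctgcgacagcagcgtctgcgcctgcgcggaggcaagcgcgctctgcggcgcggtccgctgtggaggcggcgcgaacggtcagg
DENND6B (chr22:50326963-50327262, minus strand): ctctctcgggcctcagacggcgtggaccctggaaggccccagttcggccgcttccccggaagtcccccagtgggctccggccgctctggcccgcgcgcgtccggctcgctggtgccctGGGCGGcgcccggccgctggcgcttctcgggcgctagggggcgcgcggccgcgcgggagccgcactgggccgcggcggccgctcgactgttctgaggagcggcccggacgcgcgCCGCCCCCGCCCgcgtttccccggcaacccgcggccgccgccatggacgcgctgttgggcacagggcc
GC content of these windows was 76.7% for DENND1A, 70% for DENND1B, 62.3% for DENND1C, 62% for DENND6A and 80.0% for DENND6B. The window of DENND1C held 0 GC boxes and 10 CG dinucleotides, and that of DENND6B, which also fell, held 3 boxes and 49 CG dinucleotides. Among the genes that rose, DENND1A had 5 boxes that do not share a base, DENND1B had 2 and DENND6A had 1, so the letters did not sort the genes by direction. A GC box was present in 45.0% of all 35116 RefSeq promoter windows and in 61.5% of the 52 windows of the 35 tested members that matched by symbol. A CCAAT box (CCAAT on either strand) was in 34.6% of all windows, in 19.2% of the members' windows and in 0 of the 5 shown. The sets are unlike: all windows were not limited to tested genes, and median GC content was 58.7% for them and 68.0% for the members' windows. These shares are therefore not read as traits of the families. Promoter GC content had a Spearman rho of -0.11 with log2 fold change across those 35 genes, a description only.

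DENND4 proteins are exchange factors for RAB10, which acts in exocytic and recycling traffic. DENND4B (chromosome 1, 153929501 to 153946696, minus strand, 28 exons) had 53.2, 51.2 and 49.6 CPM in siControl and 22.0, 20.3 and 18 CPM in siSON, and fell by 1.35 on the log2 scale (SE 0.08, adjusted p 7.19e-08). DENND4A rose from 22.4 ± 0.822 to 44.3 ± 1.17 CPM (log2 change 0.98, adjusted p 1.48e-07). DENND4A overlaps RAB11A on the other strand, and strand use in the counting is not stated. DENND4C stayed between 32.5 and 37.4 CPM in all 6 libraries, with a log2 change of -0.03 (with an SE of 0.07 and an adjusted p of 0.755). With library size alone DENND4C was called lower (-0.22, adjusted p 0.0234). The control order DENND4B above DENND4A was thus inverted after knockdown. RAB10 rose from 146 ± 7.09 to 237 ± 4.45 CPM (log2 change 0.70, adjusted p 3.71e-07).

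DENND2, DENND3 and DENND5 genes make up the rest of the family, with 3 lower, 2 higher and DENND2D not tested. DENND2A (chromosome 7, 140518420 to 140673993, minus strand, 19 exons), an exchange factor for RAB9, had 30.6, 28.5 and 30.9 CPM in siControl and 13, 15.3 and 14.6 CPM in siSON. It fell by 1.07 on the log2 scale (SE 0.08, adjusted p 5.19e-07), and its groups did not overlap. DENND2C was scarce, at 1.49 to 1.81 CPM in siControl and 0.892 to 1.36 CPM in siSON (log2 fold change -0.63, SE 0.22, adjusted p 0.0222). That call was lost without siControl replicate 2 (-0.60, adjusted p 0.0637) or 3 (-0.60, adjusted p 0.0567), without siSON replicate 1 (-0.59, adjusted p 0.0529) or 2 (-0.50, adjusted p 0.0797), and under cyclic loess normalization (-0.23, adjusted p 0.361). DENND2D had 5 counts in 1 siControl library and 0 in the other 5 libraries and was not tested. DENND3, an exchange factor for RAB12, fell from 21.0 ± 0.498 to 14 ± 1.15 CPM (log2 change -0.59, adjusted p 7.25e-05). DENND5A and DENND5B bind RAB6 and act on RAB39. DENND5B rose from 51.1 ± 6.73 to 69.8 ± 5.81 CPM (log2 change 0.45, adjusted p 1.56e-03). DENND5A, the most abundant DENND gene per length, rose by 0.19 (adjusted p 0.0155) on the log2 scale, but its direction turned with library size alone (-0.0072, adjusted p 0.924) and under cyclic loess normalization (-0.08, adjusted p 0.232). Its call was also lost without siControl replicate 1 (0.11, adjusted p 0.108) or siSON replicate 3 (0.15, adjusted p 0.0671).

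**Figure D2:**
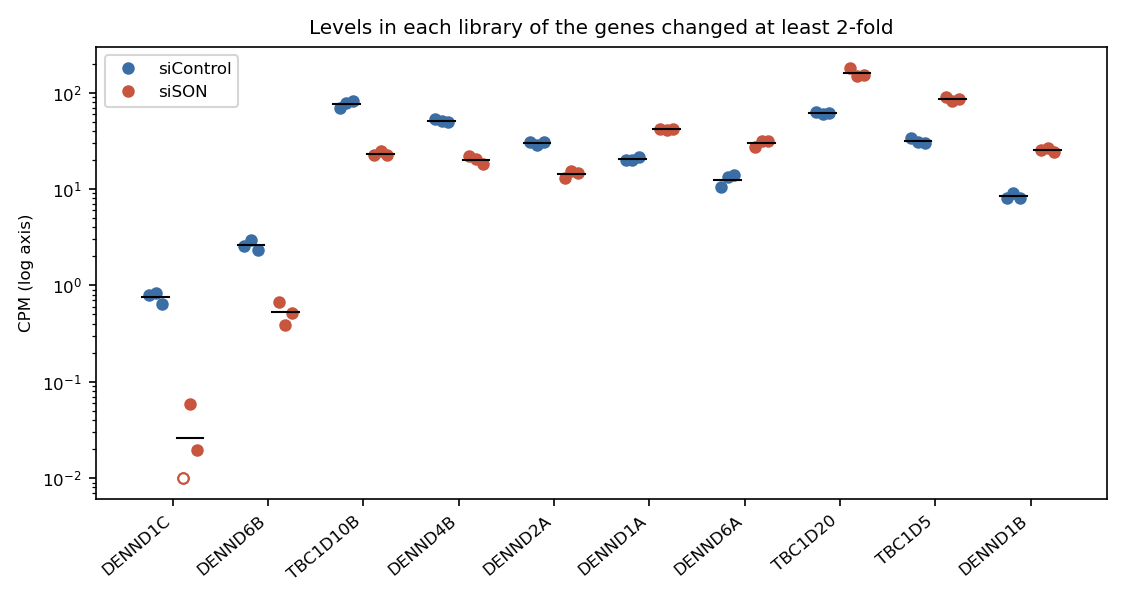
CPM (log axis) in each library of the 10 genes changed at least 2-fold, with siControl in blue, siSON in red and a line at each mean; the open circle at the foot stands for 0 CPM, in siSON replicate 1 of DENND1C. The 3 siControl and 3 siSON points of each gene lie apart, from DENND1C at 0.642 to 0.834 CPM in siControl to TBC1D20 at 147 to 182 CPM in siSON.

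Turning to the GTPase-activating side, all 4 TBC1D genes of the early secretory pathway and Golgi rose, under each of the 4 scalings compared (TMM, RLE, library size alone and cyclic loess). Higher calls made up 40.3% of protein-coding genes, and this group of 4 was drawn up with earlier results known. TBC1D20, which acts on RAB1 at the endoplasmic reticulum (ENSG00000125875; chromosome 20, 435480 to 462553, minus strand, 8 exons), had 63.2, 59.8 and 61.7 CPM in siControl and 182, 147 and 154 CPM in siSON. It rose 2.61-fold (log2 fold change 1.39, SE 0.08, adjusted p 4.02e-08), with siSON replicate 1 above its neighbours. TBC1D23, a bridge between Golgi tethers and arriving endosomal carriers, rose from 61.3 ± 2.13 to 115 ± 2.48 CPM (log2 change 0.90, adjusted p 6.78e-08). The Golgi-linked paralogs TBC1D22A and TBC1D22B rose by 0.97 and 0.42 on the log2 scale (adjusted p 5.36e-07 and 8.54e-04). RAB1A rose as well, by 1.6 on the log2 scale (adjusted p 2.78e-09). GOLGA4, a tether that TBC1D23 binds, rose from 146 ± 9.59 to 293 ± 34.0 CPM, and FAM91A1, another TBC1D23 partner, fell from 68.3 ± 1.97 to 27.6 ± 2.58 CPM (log2 changes 1.01 and -1.31, adjusted p 8.16e-07 and 5.19e-08).

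All 5 genes of the group linked to RAB7 on late endosomes and mitochondria were called, 3 higher and 2 lower, where 77.4% of protein-coding genes were called. TBC1D5, a RAB7 regulator that binds retromer (ENSG00000131374; chromosome 3, 17157162 to 18444817, minus strand, 24 exons), had 34.1, 30.4 and 30.0 CPM in siControl and 89.8, 82.5 and 85.2 CPM in siSON. It rose 2.72-fold (log2 fold change 1.45, SE 0.07, adjusted p 1.40e-08), the largest rise among TBC1D genes. The gene spans several others on its own strand, SATB1 among them. TBC1D2, also called Armus, fell from 121 ± 1.14 to 79.5 ± 0.95 CPM (log2 change -0.60, adjusted p 7.43e-07), while its paralog TBC1D2B rose from 49.1 ± 5.13 to 79.1 ± 2.22 CPM (0.69, adjusted p 8.31e-06). TBC1D15 and TBC1D17, which meet FIS1 at mitochondria, also parted, at log2 changes of 0.53 (adjusted p 4.29e-05) and -0.30 (adjusted p 0.0128). The TBC1D17 call was lost without siSON replicate 2 (-0.24, adjusted p 0.0617), and the gene overlaps others on the other strand. RAB7A, named after its values were seen, rose from 290 ± 26.9 to 576 ± 75.8 CPM (log2 change 0.99, adjusted p 4.57e-06).

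The TBC1D counterparts of the connecdenns on RAB35 are TBC1D10A, TBC1D10B, TBC1D10C and TBC1D13. TBC1D10B (ENSG00000169221; chromosome 16, 30357102 to 30370264, minus strand, 9 exons) had 69.0, 78.9 and 81.3 CPM in siControl and 22.6, 24.8 and 22.4 CPM in siSON. Among the 29 tested TBC1D genes it alone fell at least 2-fold with TMM scaling (log2 fold change -1.72, SE 0.08, adjusted p 1.14e-08, the smallest of all members). TBC1D13 rose from 35.3 ± 1.34 to 48.2 ± 1.53 CPM (0.45, adjusted p 5.56e-05). TBC1D10A had 8.90, 10.2 and 9.84 CPM beside 7.51, 9.56 and 9.25 CPM, overlapping groups, and a log2 change of -0.14 (with an SE of 0.11 and an adjusted p of 0.293) that was -0.34 (adjusted p 0.0258) with library size alone and 0.08 (adjusted p 0.542) under cyclic loess normalization. TBC1D10C, not tested, had 9, 14 and 1 counts in siControl and 0 in every siSON library, which allows up to 21.5% of the control level (upper limit of the 95% exact interval, counting error only). RAB35, named after its values were seen, stood at 129 ± 3.09 and 148 ± 1.34 CPM (0.20, adjusted p 3.35e-03), with -0.08 (adjusted p 0.144) under cyclic loess normalization and 3.6e-04 (adjusted p 0.995) with library size alone.

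TBC1D1 and TBC1D4 regulate the Rabs of glucose transporter vesicles, RAB10 among them. TBC1D4 rose from 52.0 ± 0.987 to 101 ± 3.34 CPM (log2 change 0.95, adjusted p 5.06e-08). TBC1D1 had 101, 110 and 113 CPM in siControl and 74.4, 93.4 and 96.5 CPM in siSON, and fell by 0.29 on the log2 scale (adjusted p 0.0129). In the autophagy and RAB11 group, TBC1D14, a RAB11 partner, fell by 0.45 (adjusted p 2.80e-05) and TBC1D25, which acts on RAB33B, rose by 0.45 (adjusted p 7.62e-05) on the log2 scale. TBC1D12, the paralog of TBC1D14, had 0.12 (adjusted p 0.169) with TMM and -0.08 (adjusted p 0.336) with library size alone.

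Of the 3 TBC1D genes linked to the cilium and centrosome, 1 was called, where 77.4% of protein-coding genes were. TBC1D31, found at centriolar satellites, had 10.4, 12.5 and 11.7 CPM in siControl and 10.3, 11.3 and 12.7 CPM in siSON (log2 fold change -0.02, SE 0.11, adjusted p 0.905). TBC1D32, needed for cilium assembly, had -0.32 (adjusted p 0.0529), and passed the threshold without siControl replicate 1 (-0.37, adjusted p 0.0449) or siSON replicate 1 (-0.38, adjusted p 0.0398), with library size alone (-0.51, adjusted p 4.95e-03) and with a mean count of at least 50 (-0.37, adjusted p 0.0260). TBC1D30, a RAB8 regulator, was called at 0.30 (adjusted p 0.0306), and this was lost without siControl replicate 1 (0.21, adjusted p 0.140) or 2 (0.25, adjusted p 0.135), without siSON replicate 2 (0.30, adjusted p 0.0662) or 3 (0.26, adjusted p 0.0934), and with library size alone (0.10, adjusted p 0.427). KIF3B, a ciliary motor subunit, rose by 0.87 on the log2 scale (adjusted p 3.46e-07). Other listed partners, named after their values were seen, did not share this rise. PCM1 was called lower (-0.20, adjusted p 3.39e-03) and OFD1 was not called (-0.14, adjusted p 0.176). CDK20 was called higher (0.37, adjusted p 0.0405), but its groups overlapped.

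TBC1D7 is the third subunit of the TSC complex, a brake on mTOR signalling. It had 12.1, 10 and 11.5 CPM in siControl and 13.5, 12.9 and 13.6 CPM in siSON (log2 fold change 0.25, adjusted p 0.0352). Its call was lost in 5 of the 6 fits that left out 1 library, most without siControl replicate 2 (0.15, adjusted p 0.208); without siControl replicate 3 and siSON replicates 1, 2 and 3 the adjusted p was 0.0684, 0.0575, 0.0506 and 0.0871. With library size alone it was 0.05 (adjusted p 0.637). Its partners moved apart, TSC2 falling from 87.8 ± 1.25 to 27.4 ± 4.94 CPM (-1.68, adjusted p 2.09e-07) and TSC1, named after its values were seen, rising from 61.4 ± 3.32 to 101 ± 9.70 CPM (0.71, adjusted p 6.09e-06).

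Among the other TBC1D genes, TBC1D9B, TBC1D24 and TBC1D16, the last a RAB4 regulator, fell their log2 changes being -0.86, -0.46 and -0.43 (adjusted p 7.79e-08, 1.37e-03 and 1.50e-03). TBC1D8B and TBC1D9 rose by 0.72 and 0.40 (adjusted p 4.39e-05 and 7.32e-05). TBC1D8 had 0.30 (adjusted p 0.117), which passed without siControl replicate 2 (0.43, adjusted p 0.0443) and under cyclic loess normalization (0.66, adjusted p 3.80e-03). TBC1D19 had -0.16 (adjusted p 0.196), with -0.36 (adjusted p 8.77e-03) for library size alone and 0.08 (adjusted p 0.521) under cyclic loess normalization. TBC1D3 is a primate-specific cluster on chromosome 17 with 11 near-identical copies in the table: 6 had 0 counts in every library, 4 had a few counts, and TBC1D3L, with 122, 144 and 120 counts in siControl and 84, 79 and 58 in siSON, was tested (-0.44, SE 0.21, adjusted p 0.0771). TBC1D3L was called with library size alone (-0.64, adjusted p 0.0181) and had -0.06 (adjusted p 0.812) under cyclic loess normalization. How reads that fit several copies were assigned is not stated, so no copy can be read alone. TBC1D21 and TBC1D26 had 0 counts throughout, TBC1D28 had at most 6 in a library, and TBC1D29P fell short of the filter with 50 counts over siControl and 2 over siSON, or 5.19% of the control level (95% exact interval 0.611% to 19.7%).

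Levels were compared between genes per length, as TPM, which divides counts by the union of annotated exons and rescales each library to one total. TPM carries no TMM factor, so its ratios differ from the CPM changes above. In siControl TBC1D2 stood highest at 120 ± 3.40 TPM, apart from TBC1D9 at 59.9 ± 4.01 TPM, and DENND5A followed at 51.5 ± 4.16 TPM. Below these, TBC1D1, TBC1D23, TBC1D14, TBC1D9B and TBC1D10B lay within 41.7 to 43.7 TPM with overlapping libraries. In siSON TBC1D20 stood first at 90.0 ± 8.43 TPM, up from 38.6 ± 0.483 TPM and rank 9, followed by TBC1D23 (72.4 ± 2.73), TBC1D2 (70.5 ± 1.54) and TBC1D9 (70.4 ± 2.72), which did not differ beyond their spread. TBC1D10B went from rank 8 to rank 24. Of the 41 neighbours in the order, 29 overlapped in siControl and 24 in siSON. The summed level of TBC1D genes was 700 ± 24.7 TPM in siControl and 718 ± 8.16 TPM in siSON, and that of DENND genes 163 ± 9.98 and 160 ± 8.64 TPM, and the libraries overlapped for both. The CPM scale is not per length and carries the TMM factors, 1.061 to 1.08 in siControl and 0.9256 to 0.9446 in siSON. On that scale the sums did not overlap. TBC1D genes had 1198.8 to 1247.7 CPM in siControl and 1380.3 to 1412.3 CPM in siSON, and DENND genes 359 to 392 and 419 to 447 CPM. Sums without these factors were not compared, so the separation cannot be read as a rise of either family in counts.

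**Figure D3:**
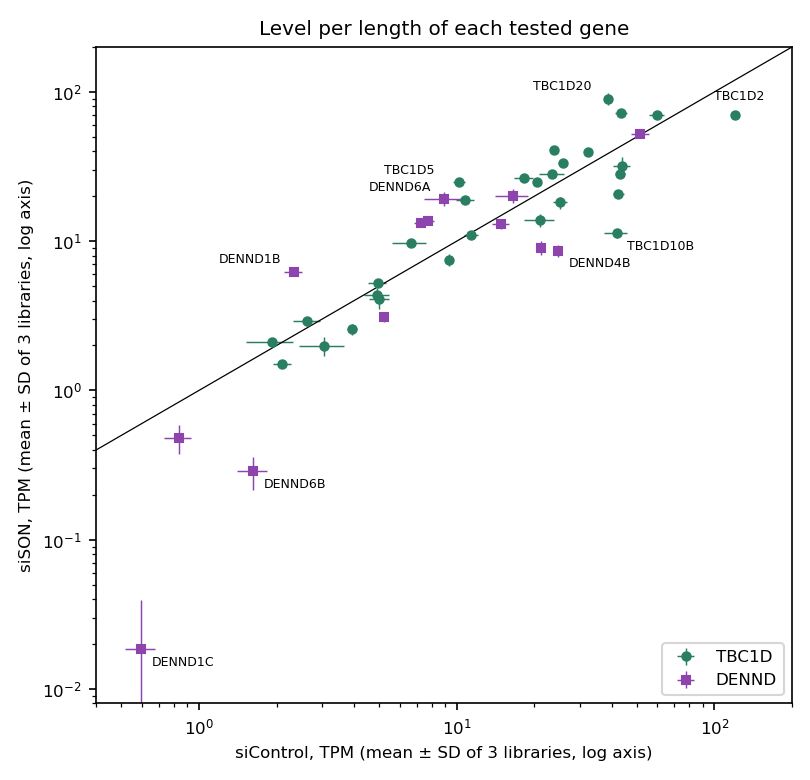
Level per length (TPM, mean ± SD of 3 libraries, log axes) of each tested gene in siControl (horizontal) and siSON (vertical), with TBC1D as circles, DENND as squares and the line of equal level; the lower bar of DENND1C leaves the plot because its SD exceeds its mean. TBC1D20 is highest in siSON at 90.0 TPM, TBC1D2 falls from 120 to 70.5 TPM, and DENND1C and DENND6B lie farthest below the line.

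The ratio of paralogs within a library does not depend on how libraries are scaled, and it was compared for the 14 of 15 listed pairs in which both genes were tested. Several pairs share a gene, such as the DENND4 pairs, and DENND1C, with 0 to 3 counts in siSON libraries, is in no listed pair. The 3 siControl and 3 siSON ratios did not overlap in any of the 14, where 79.9% of single protein-coding genes do not overlap in CPM and the share for other gene pairs was not computed, so the exact permutation test (2-sided) gave p = 0.1 for each, which is the lowest value possible with 3 libraries against 3, and 0.1 after adjustment over the 14. Among these 14, DENND6A over DENND6B moved most, from a ratio of 4.74 to 57.6, a log2 difference of 3.60. DENND4A over DENND4B went from 0.437 to 2.22 and TBC1D9 over TBC1D9B from 0.689 to 1.65, so that the more abundant transcript by count changed places. TBC1D1 over TBC1D4 went from 2.07 to 0.871, and TBC1D2 over TBC1D2B from 2.47 to 1.01. TBC1D10A over TBC1D10B went from 0.127 to 0.376. The smallest shift was that of DENND5A over DENND5B, from 2.39 to 1.99. In 6 pairs the genes were called in opposite directions, and in 3 both rose.

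**Figure D4:**
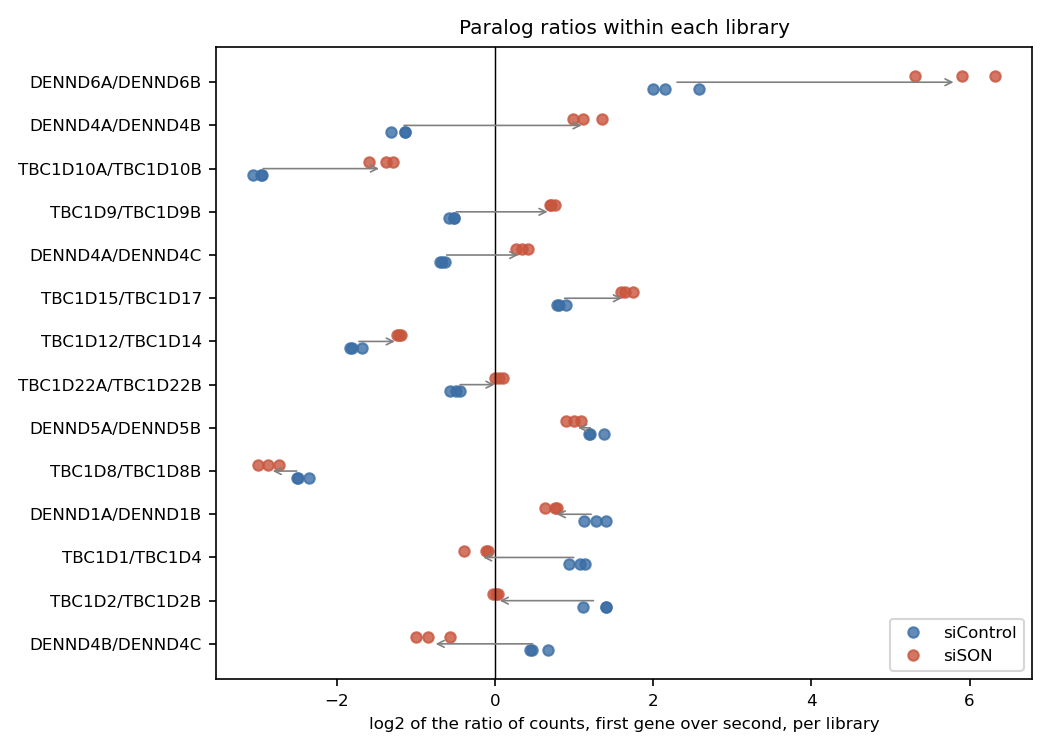
Log2 of the ratio of counts of paired paralogs (first gene over second, 0.5 added to each count) in each siControl (blue) and siSON (red) library for 14 pairs, with an arrow between group means. Blue and red points do not overlap in any pair; DENND6A/DENND6B moves by 3.60 and DENND5A/DENND5B by -0.26.

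Gene structure of the paralogs was taken from the GENCODE 29 transcript with the longest coding sequence. In 13 of the 14 pairs the gene with the more GC-rich transcript had the lower log2 fold change, as in all 6 pairs called in opposite directions. TBC1D22A and TBC1D22B were the exception. The gene with the shorter median intron was the lower in 11 of the 14. These shares were not computed for other gene pairs. Transcript GC content was 62.2% for DENND6B and 40.7% for DENND6A, and the median intron was 135 and 1535 bases. For DENND4B and DENND4A it was 61.5% and 39.7%, with median introns of 252 and 1974.5 bases. TBC1D1 and TBC1D4, also called in opposite directions, differed little in GC content (49.3% and 47.0%). There the gene that fell, TBC1D1, had the longer median intron (6069 against 3493.5 bases). As a description, across the 42 tested genes log2 fold change had a Spearman rho of -0.51 with transcript GC content and 0.44 with median intron length. Within DENND alone (13 genes) these were -0.75 and 0.59, and within TBC1D (29 genes) -0.42 and 0.28. Over all protein-coding genes tested the same rho was -0.21 (13003 genes) and 0.25 (12705 genes), so the direction was shared with the transcriptome. GC content, intron length and gene span are themselves related, and paralogs are not independent points. The values for all members and for DENND include DENND1C, which passed the filter through siControl alone.

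Of the 42 tested members, 4 combined a transcript GC content of at least 60% with a median intron of at most 300 bases: DENND1C, DENND6B, DENND4B and TBC1D10B. These limits were set after the falls of the 4 had been seen, so their common direction is a description. DENND1C passed the filter through siControl alone, so it could only be tested because it was high there. TBC1D10C, not tested, also lies within them (66.2%, 243.5 bases). Of 634 protein-coding genes with this structure, 451 (71.1%) were called lower, 98 higher and 85 neither, with a median log2 fold change of -1.10. The other tested members with a GC content of at least 60% had longer introns, and were TBC1D2 (median intron 3756.5 bases, log2 change -0.60), TBC1D17 (379.5 bases, -0.30) and TBC1D10A (742 bases, -0.14, not called). Just below, at 57.8% to 59.4%, 3 rose (DENND1A, TBC1D22A and TBC1D13) and 3 fell (DENND2A, TBC1D9B and TBC1D16). Exon number had a rho of 0.02 with log2 fold change across the 42 genes.

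**Figure D5:**
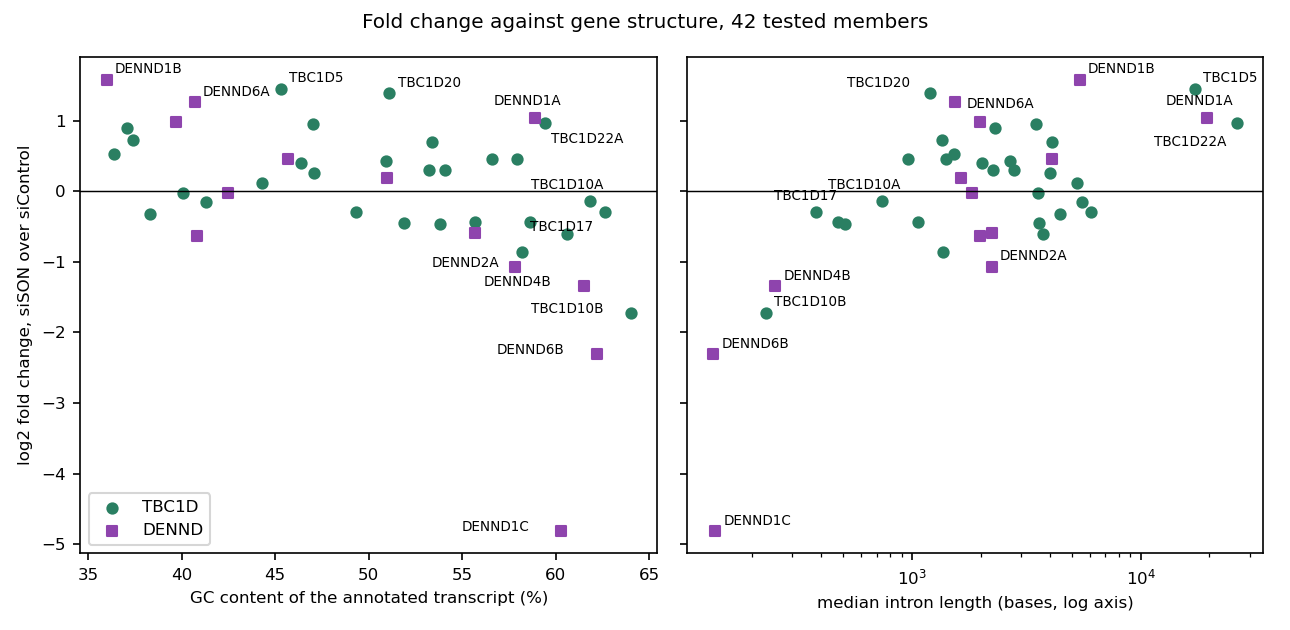
Log2 fold change (siSON over siControl, vertical) of the 42 tested genes against GC content of the annotated transcript (left) and median intron length (right, log axis), with TBC1D as circles and DENND as squares. DENND1C, DENND6B, TBC1D10B and DENND4B lie at GC contents of 60.3% to 64.0% and median introns of 135 to 252 bases.

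Rab regulators outside the naming rule were also called in both directions. Of 10 other TBC-domain and Rab3-type activating proteins tested, 6 rose and 2 fell (3 and 3 with library size alone; median 0.23). Their share called, 80.0%, was near the 77.4% of protein-coding genes. EVI5 rose from 14.7 to 32.5 CPM on average (log2 change 1.14, adjusted p 8.79e-08), and its paralog EVI5L fell from 42.5 ± 2.48 to 7.97 ± 0.752 CPM (-2.41, adjusted p 3.37e-09). SGSM2 fell by 1.74 and RAB3GAP1, part of a RAB18 exchange and Rab3 activating complex, rose by 0.74 on the log2 scale (adjusted p 5.83e-09 and 6.29e-07). Of 34 other exchange factors and their partners, 16 rose and 8 fell, with a median of 0.20 (15 and 11, median 0, with library size alone). The share called, 70.6%, was near the 71.7% of all genes and below the 77.4% of protein-coding genes. Among those with the smallest adjusted p-values were SH3BP5L, a RAB11 exchange factor (1.00, adjusted p 1.78e-08), RIN3, one for RAB5 (1.57, adjusted p 1.89e-08), and the DENN-domain gene KIAA1147 (1.49, adjusted p 3.09e-08), which all rose. Of the other DENND-family genes under other names, ST5 fell from 64.7 ± 2.91 to 53.5 ± 2.54 CPM (-0.27, adjusted p 2.13e-03), and FAM45A had 46.1 ± 3.26 and 50.3 ± 3.22 CPM (0.13, adjusted p 0.143).

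The proteins that carry Rabs between membrane and cytosol, or attach their lipid anchors, held 3 rises and 4 falls in 8 genes tested (2 and 5 with library size alone; median -0.23). GDI2, which extracts Rabs from membranes, rose from 270 ± 11.9 to 422 ± 4.75 CPM (log2 change 0.64, adjusted p 4.34e-07). The escort protein gene CHML and RABGGTA, the alpha subunit of the enzyme that prenylates Rabs, fell by 1.15 and 0.70 on the log2 scale (adjusted p 1.82e-07 and 4.75e-06). Of 16 Rab substrates tested, 9 rose and 4 fell (6 and 6 with library size alone; median 0.20). Besides RAB1A and RAB10, RAB8A rose by 0.94 (adjusted p 6.31e-08), and RAB11A fell by 0.75 on the log2 scale (adjusted p 4.99e-07). Among 14 listed partners of TBC1D proteins, 8 rose and 4 fell (4 and 6 with library size alone; median 0.23). The shares called were 87.5% for the carriers and anchoring enzymes, 81.2% for the Rab substrates and 85.7% for the partners. They stood beside 77.4% of protein-coding genes (40.3% higher and 37.1% lower), so these counts are not read as traits of the lists.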

How the data were processed

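The authors deposited raw read counts per gene for the 6 libraries, not normalized and with replicates not pooled, per the file headers. The submitters' processing notes list hg38, cutadapt 1.16, STAR 2.5.2a, featureCounts 1.6.2 and DESeq2 1.28.1; annotation, strand setting and multi-mapping rule are not given in the sources used here. All 58735 identifiers matched GENCODE 29 (GRCh38), the source of positions, lengths, exons and GC content. Promoters are from RefSeq (GRCh38.p14).

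Using edgeR 4.0.16 (R 4.3.3), low genes were removed by filterByExpr (minimum count 10), scaled by TMM and compared with a robust quasi-likelihood fit of group over all 16591 genes tested, with Benjamini-Hochberg adjustment and a threshold of 0.05; adjusted p-values are from this fit. SE is the absolute log2 fold change over the root of F. The fit was tested on simulated data. CPM for 3 counts was 0.0402 to 0.0590. Alternatives, all in the plan, were DESeq2 1.42.0, limma 3.58.1 (voom, cyclic loess), RLE, library size alone, 2 filters, a replicate block and leaving out each library. Members and lists were chosen with earlier results of these data known. All members are named; values per library are given for those changed at least 2-fold, and for each further list the 4 genes with the smallest adjusted p, some of which are not reported here. No protein sequences were used here.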

Additional observations from a re-analysis of the deposited data

How the results depend on the processing

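The count of TBC1D genes called (22) ranged from 21 to 24 and that of DENND genes (12) from 10 to 12 over the alternative tools, scalings, filters and block, and from 19 to 22 and 11 to 11 over the fits that left out 1 library. The count changed at least 2-fold (10) ranged from 8 to 12. Of the 34 called members, 29 kept call and direction in every fit that tested them, and the exceptions were TBC1D7, TBC1D17, TBC1D30, DENND2C and DENND5A. With a mean count of at least 50, TBC1D7 (0.19), TBC1D30 (0.24) and DENND5A (0.13) were not called. DENND5A turned to -0.0072 with library size alone and -0.08 under cyclic loess normalization. Under cyclic loess, CETN2 turned to -0.03, RAB35 to -0.08, and of the members not called TBC1D32 to 0.03, TBC1D19 to 0.08, TBC1D10A to 0.08 and TBC1D31 to 0.16; with library size alone TBC1D12 turned to -0.08. Leaving out 1 library gave DENND4C -0.10 to 0.02 and TBC1D31 -0.11 to 0.05. The cause was not tested.

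Same-numbered libraries of the groups correlated by 0.0461 to 0.194 in their deviations from group means. Differently numbered ones correlated by -0.138 to 0.0286, all lower. Replicate 1 stood apart in both groups by the chi-square per degree of freedom between the counts of 2 replicates. In siControl this was 16.6 and 21.9 for replicate 1 against 2 and 3, and 6.68 between 2 and 3. In siSON it was 19.6, 23.6 and 6.68. Whether the numbers mark a shared batch was not tested. By a limit of 0.1, which the same-numbered correlations did not all pass, the numbers were not taken as pairs in the main fit. With the replicate block 23 TBC1D and 12 DENND genes were called, TBC1D3L joining (adjusted p 0.0487), and no member lost its call. Depth limits DENND1C, DENND2C, DENND6B, TBC1D10C and the TBC1D3 copies.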
